A study of Mus musculus with 155 samples.

Results

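The p53 gene Trp53 and 9 of its known target genes (Mdm2, Ccng1, Cdkn1a, Bax, Bbc3, Sesn2, Zmat3, Trp53inp1 and Phlda3) were followed through mouse embryonic stem cells (ESCs), retinoic acid (RA)-treated cells and oligodendrocyte progenitor cells (OPCs). These 10 genes were chosen by name and were found by their Ensembl gene in the tables of read counts, which hold 55471 genes. All 10 passed the filter on low counts in every comparison. KH2 is a mouse ESC line, into which 1 tagged copy of histone H3.3 was inserted that can be switched on with doxycycline (Dox). The lines carried WT-H3.3 or a mutant, H3.3K27M or H3.3K27L, in which lysine 27 is replaced by methionine or by leucine, and every line still had its own H3.3 genes. The lines were grown from hygromycin-selected colonies, and the methods report a possible duplication of chromosome 8 in all clones. No sample without Dox was analysed here, so WT-H3.3 cells with Dox are the control throughout.

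In ESCs, 32 RNA-seq libraries covered WT-H3.3, both mutants (H3.3K27L and H3.3K27M) and WT-H3.3 with GSK343, an inhibitor of the H3K27 methyltransferase of PRC2, each with 2 replicates at 4, 8, 24 and 72 h of 1 µM Dox. RA-treated cells gave 6 libraries, from the 3 lines at 24 and 72 h of Dox with 1 library each. OPCs, made through embryoid bodies with RA and purmorphamine, gave 4 libraries, from WT-H3.3 and H3.3K27M at 24 and 72 h of Dox with 1 library each. The total count per library was 7499258 to 12387113 in OPCs, 2239137 to 22269533 in RA-treated cells and 1247934 to 21161392 in 31 ESC libraries. The remaining ESC library (H3.3K27L, 72 h, replicate 2) held 68378 counts. Levels are given as CPM (the share of a library's counts, per 1000000) scaled by TMM factors over the 42 libraries. Per the methods, the replicates were biological and were made at different times, some weeks from each other. In OPCs and RA-treated cells the Dox times stand in for replicates of a line.

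p53 is a transcription factor that is stabilized after DNA damage and other stress. It is held low by Mdm2, an E3 ubiquitin ligase that is itself a p53 target, so that p53 and Mdm2 form a negative feedback loop. Among the other targets, Cdkn1a (p21) inhibits cyclin-dependent kinases and arrests the cell cycle, Ccng1 encodes cyclin G1, Bax and Bbc3 (Puma) promote apoptosis through mitochondria, Phlda3 restrains Akt signalling, Sesn2 (sestrin 2) acts in the stress response and on mTORC1, Zmat3 is an RNA-binding zinc finger protein, and Trp53inp1 is a nuclear stress protein that acts with p53. The p53 protein is regulated mainly after translation, so that the level of Trp53 RNA is not a measure of p53 activity.

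p53 binds a pair of decamers, each with the core C-A/T-A/T-G between purines and pyrimidines. The genome sequence of mm9 was searched for this pair without a spacer, on both strands, within 3 kb each side of the annotated start of each gene, with at most 2 mismatches among 20 bases and with the C and the G of both cores kept. The matches are shown because this is the sequence that p53 is known to bind in its targets, and 4 of the 10 genes had one. They are written 5′ to 3′ on the strand of the gene, with the 4 core bases of each decamer in capitals.
Cdkn1a, chr17:29227873-29227892, 42 bases upstream of the start, 1 mismatch: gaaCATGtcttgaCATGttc
Ccng1, chr11:40568964-40568983, 160 bases upstream, 1 mismatch: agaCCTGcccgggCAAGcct
Ccng1, chr11:40568438-40568457, 366 bases downstream, 1 mismatch: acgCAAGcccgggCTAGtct
Zmat3, chr3:32263253-32263272, 1338 bases downstream, 0 mismatches: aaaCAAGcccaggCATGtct
Bax, chr7:52721944-52721963, 315 bases downstream, 2 mismatches: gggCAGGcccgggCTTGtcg

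A match was present in 4 of the 10 genes, whereas 6.09% of 20753 protein-coding genes had one in a window of the same length. With at most 1 mismatch it was 3 of the 10 genes against 0.978%, and with 0 mismatches 1 gene (Zmat3) against 0.101%. A match is a description of the letters and not evidence of binding here, and the absence of a match in the other 6 genes says only that these letters are not in the window. The genes lie on 7 chromosomes, none on chromosome 8. Trp53 (chr11:69393861-69405375) and Ccng1 share chromosome 11, Bax and Bbc3 share chromosome 7, and Sesn2 and Trp53inp1 share chromosome 4. None of them shares exon bases with another annotated gene.

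The order of the genes changed between stages. To compare genes with each other, CPM was divided by the exon length in kb. In the 31 deeper ESC libraries Bax (median 103 CPM per kb), Trp53 (90.7) and Ccng1 (79.2) were at the top, followed by Cdkn1a (60.7), Trp53inp1 (33.4), Sesn2 (31.4), Phlda3 (29.0), Mdm2 (23.9), Zmat3 (16.2) and Bbc3 (7.25). In RA-treated cells at 24 h of Dox Ccng1 was the highest (294), and at 72 h Phlda3 was (142). In WT-H3.3 OPCs Cdkn1a (341), Phlda3 (340) and Mdm2 (206) were at the top and Trp53 was the lowest (3.67). Where a library was made with a 3′ kit, counts do not grow with exon length, so this order depends on a kit that is not stated per library.

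**Figure D1:**
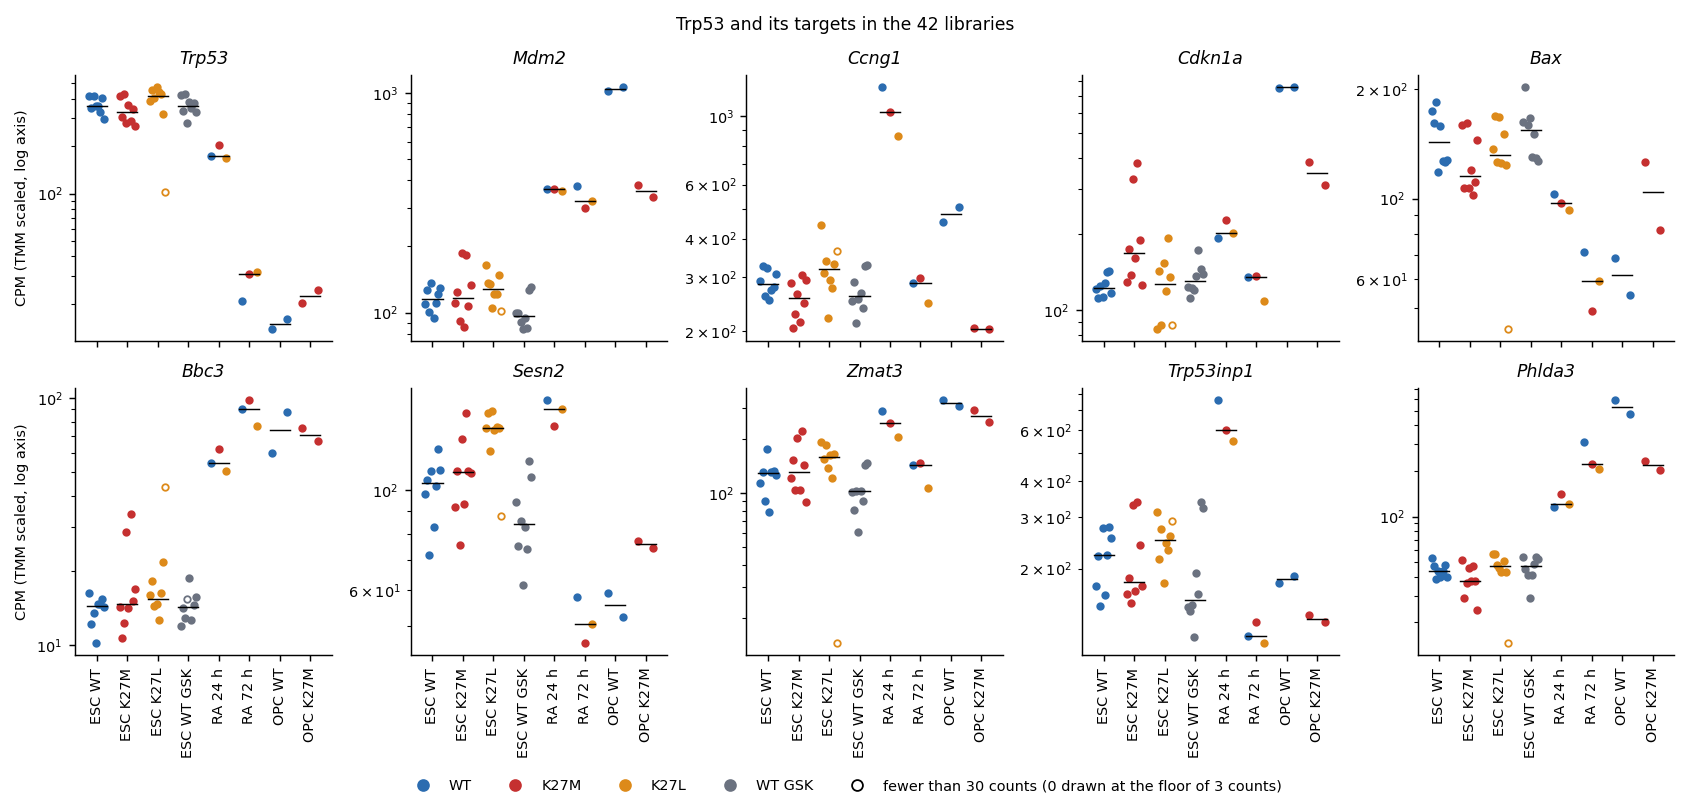
Each panel shows 1 gene, with the CPM (TMM-scaled, logarithmic axis) of every library as a point coloured by line, the groups along the x axis and a bar at the group median. Open symbols mark values from few counts. Mdm2, Cdkn1a and Phlda3 are highest in the WT-H3.3 OPCs, and Trp53 is at 13.8 to 24.5 CPM in the 4 OPC libraries against 267 to 477 CPM in the deeper ESC libraries.

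Between H3.3K27M and WT-H3.3 OPCs, 4 of the 10 genes differed more than 2-fold, and all 4 were lower in H3.3K27M cells. They were Mdm2, Phlda3, Ccng1 and Cdkn1a, which encode the p53 antagonist, the Akt inhibitor, cyclin G1 and the cell cycle inhibitor p21. A gene was called here and below at an adjusted p-value under 0.05 (edgeR's quasi-likelihood test with Benjamini-Hochberg adjustment) and a fold change above 2 or below 0.5. In this comparison 27.9% of 12467 genes were called, 15% were called lower and 51.5% passed the adjusted p alone, so that calls were frequent among all genes.

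Mdm2 stood at 1020 and 1070 CPM in WT-H3.3 OPCs and at 381 and 337 CPM in H3.3K27M OPCs, at 24 and 72 h of Dox. Both mutant libraries lay below both controls, and Mdm2 was 2.93-fold lower in H3.3K27M (log2 fold change -1.55, SE 0.14, adjusted p = 5.15e-06, n = 2 each, edgeR). Phlda3 was at 586 and 474 CPM in WT-H3.3 and at 234 and 204 CPM in H3.3K27M. These groups did not overlap either, at a 2.43-fold lower level in H3.3K27M (log2 fold change -1.28, SE 0.14, adjusted p = 2.94e-05, edgeR). How many of all genes lie apart between these libraries was not counted, so the lack of overlap does not set these genes apart.

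Ccng1 was at 452 and 508 CPM in WT-H3.3 OPCs and at 204 and 203 CPM in H3.3K27M OPCs, a 2.37-fold lower level in the mutant (log2 fold change -1.24, SE 0.13, adjusted p = 2.15e-05, edgeR). Cdkn1a was at 753 and 762 CPM in WT-H3.3 and at 385 and 312 CPM in H3.3K27M, which was 2.18-fold lower (log2 fold change -1.13, SE 0.14, adjusted p = 7.51e-05, edgeR). For both genes the 2 Dox times gave like levels within a line, and the lines did not overlap. How common this is over all genes was not counted. These 4 genes were called in each fit that left out 1 of the 4 libraries.

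The other genes did not move together in OPCs. Bax, a pore-forming member of the Bcl-2 family, was higher in H3.3K27M cells at 126 and 82.2 CPM against 68.5 and 54.5 CPM (log2 fold change 0.76, SE 0.20, adjusted p = 0.00816, edgeR). Sesn2 was also higher, at 77.2 and 74.5 against 59.1 and 52.3 CPM (log2 fold change 0.44, SE 0.14, adjusted p = 0.0217), and so was Trp53, at 20.1 and 24.5 against 13.8 and 15.9 CPM (log2 fold change 0.58, SE 0.20, adjusted p = 0.0331, edgeR). Trp53inp1 was lower at 138 and 131 against 178 and 189 CPM (log2 fold change -0.45, SE 0.13, adjusted p = 0.0121).

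None of these 4 smaller differences was as stable as the calls above. Of the 4 fits that left out 1 library, Bax passed an adjusted p of 0.05 in 3, Trp53 and Trp53inp1 in 2 and Sesn2 in 1, and with DESeq2 the adjusted p of Trp53 was 0.093. Zmat3 (330 and 307 CPM in WT-H3.3, 291 and 249 CPM in H3.3K27M; log2 fold change -0.24, SE 0.13, adjusted p = 0.145) and Bbc3 (60.1 and 88 CPM in WT-H3.3, 75.3 and 66.8 CPM in H3.3K27M; log2 fold change -0.07, SE 0.19, adjusted p = 0.786) did not pass the test, and Bbc3 overlapped between the lines. The median log2 fold change of the 10 genes was -0.35, and that of all genes tested was 0.

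Further genes of the pathway were taken from 4 lists written from general knowledge. In OPCs 47 of their 52 genes were tested, of which 9 were called lower and 3 higher in H3.3K27M cells, or 25.5%, against the 27.9% of all genes. Of 12 cell death targets 4 were called lower and 0 higher, where 15% of all genes were called lower. Perp, a desmosomal protein with a part in apoptosis, had the lowest adjusted p at 3.01 to 3.71 CPM against 35.9 to 38.8 CPM in WT-H3.3 (log2 fold change -3.47, SE 0.23, adjusted p = 7.3e-07). Fas, a death receptor, was at 4.91 to 5.64 against 30.9 to 34.5 CPM (log2 fold change -2.63, SE 0.22), and Tnfrsf10b, the receptor of TRAIL, at 32.8 to 39 against 98 to 113 CPM (log2 fold change -1.56, SE 0.15). The groups of these 3 receptors and membrane proteins did not overlap, which was not counted over all genes.

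Of 11 growth arrest targets tested, 3 were called lower and 0 higher. Of all genes 27.9% were called in this comparison and 15% were called lower, so these counts do not set the list apart. Epha2, an ephrin receptor, was at 1.63 to 1.9 CPM in H3.3K27M against 25.6 to 26.5 CPM in WT-H3.3 (log2 fold change -3.88, SE 0.27), Sfn (14-3-3 sigma) had a log2 fold change of -1.95 (SE 0.35) and Gadd45a, which acts in DNA repair and growth arrest, of -1.41 (SE 0.25). Among 11 metabolism and repair targets Polk, a translesion DNA polymerase (log2 fold change -2.09, SE 0.15), and Gls2, a glutaminase (-2.26, SE 0.60, at 0.317 to 2.14 CPM over the 4 libraries), were called lower and Fdxr, a ferredoxin reductase (1.18, SE 0.19), was called higher.

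Of 13 regulators of p53 tested, 0 were called lower and 2 were called higher (15.4% called, beside the 27.9% of all genes), the checkpoint kinases Chek1 (51.3 to 52.8 CPM in H3.3K27M, 15.4 to 17.3 CPM in WT-H3.3; log2 fold change 1.67, SE 0.17) and Chek2 (25.4 to 25.8 against 11.5 to 11.8 CPM; log2 fold change 1.13, SE 0.19). The balance of the lists was not compared by a test. The median log2 fold change was 0.30 in the regulators, -0.50 in the cell death targets, -0.25 in the growth arrest targets and -0.10 in the metabolism and repair targets.

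Markers of several cell types differed between the same OPC libraries. Of 7 fibroblast markers all were above 0 in each library, and their summed level was 626 to 680 CPM in WT-H3.3 and 26.7 to 30.9 CPM in H3.3K27M. Of these 6 were called lower in H3.3K27M cells and Thy1 was called higher. The 6 OPC markers summed to 568 to 608 CPM in WT-H3.3 and to 1920 to 2150 CPM in H3.3K27M, but they did not go one way, with 4 called higher (Olig1, Olig2, Cspg4 and Nkx2-2) and 2 called lower. The latter were Pdgfra, the PDGF receptor that marks OPCs, at a mean of 0.762 CPM in H3.3K27M against 21.5 CPM, and Sox10 at 0.376 against 2.93 CPM. The 6 neuron markers summed to 809 to 844 and 2000 to 2230 CPM, a sum carried mainly by Map2 (634 and 1820 CPM on average), and 3 of them were called higher and 3 lower. Among the latter was Stmn2, at a mean of 0.772 CPM in H3.3K27M against 150 CPM. The 5 astrocyte markers summed to 920 to 933 and 1000 to 1370 CPM, mainly through Slc1a3 (832 and 1140 CPM on average), while Gfap (0.158 CPM in H3.3K27M against 31.8 CPM), Aqp4 (7.8 against 34.3 CPM) and Aldh1l1 (2.21 against 7.7 CPM) were called lower. The 6 extraembryonic endoderm markers summed to 66.7 to 83.8 CPM in WT-H3.3 and 16.5 to 20.1 CPM in H3.3K27M, and all 4 that were tested were called lower. The 8 ESC markers summed to 112 to 125 CPM in WT-H3.3 and 24.2 to 25.7 CPM in H3.3K27M, with Pou5f1, Dppa5a and Tdgf1 at 0 in all 4 libraries. The sum in WT-H3.3 was mainly Klf4 (median 112 CPM, against 7.32 CPM in H3.3K27M). The markers did not go one way, since Esrrb (1.71 against 16.6 CPM) and Nanog (0.146 against 0.668 CPM) were higher in H3.3K27M. The part of these cell types in the differences of the p53 targets was not tested, and in bulk RNA a change in the share of a cell type cannot be told apart from a change of RNA per cell.

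**Figure D2:**
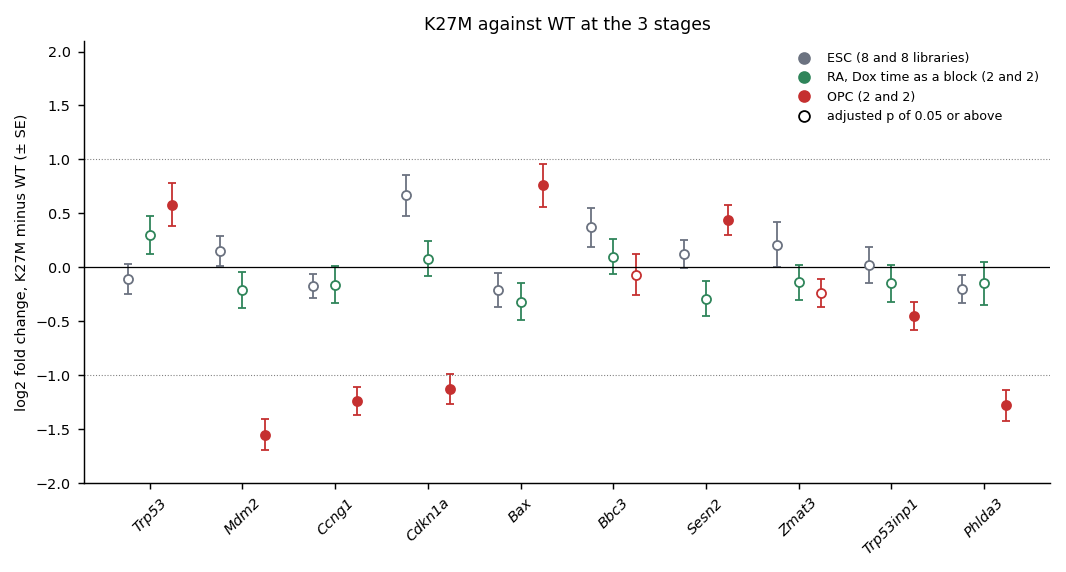
The log2 fold change of H3.3K27M over WT-H3.3 (y axis, bars are the SE) is shown for the 10 genes in ESCs, RA-treated cells (Dox time as a block) and OPCs, with filled symbols where the adjusted p was under 0.05 and dotted lines at a 2-fold change. Mdm2, Ccng1, Cdkn1a and Phlda3 lie between -1.13 and -1.55 in OPCs, while in ESCs the highest value is Cdkn1a at 0.67.

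Whether the H3.3K27M difference in OPCs exceeded that in ESCs was tested as an interaction, with the ESC libraries of 24 and 72 h. For Mdm2 the OPC difference was lower by 1.71 on the log2 scale (interaction -1.71, SE 0.36, adjusted p = 0.006, edgeR). Mdm2 was the only one of the 10 genes to pass, where 6.51% of 15828 genes were called and 4.56% were called lower. Its adjusted p was 0.0032 to 0.042 in 21 of the 22 fits that left out 1 library and 0.0689 without the H3.3K27M OPCs of 72 h. For Cdkn1a the interaction was -1.83 (SE 0.54) with an adjusted p of 0.0502 in edgeR and 0.00964 in DESeq2. For Phlda3 (-1.06, SE 0.50, adjusted p = 0.268) and Ccng1 (-1.17, SE 0.71, adjusted p = 0.437) it did not pass the test. Between RA-treated cells and ESCs no interaction passed in the 10 genes, and 0% of all genes were called.

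In RA-treated cells, most of the genes differed with Dox time in every line. Between 72 and 24 h of Dox 9 of the 10 genes passed an adjusted p of 0.05, 7 of them lower at 72 h, and 5 were called, of which 4 were lower. Calls were common here: of 12233 genes 69.5% passed (36.2% lower) and 42.9% were called (22.9% lower). The model had the line as a block (n = 3 each). The methods of the paper pool these Dox times and call them similar, whereas here 69.5% of genes passed between them.

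Trp53 was at 172, 204 and 167 CPM at 24 h and at 20.9, 30.7 and 31.7 CPM at 72 h, in the order WT-H3.3, then H3.3K27M, then H3.3K27L. All 3 lines were lower at 72 h, 5.6-fold in the fit (log2 fold change -2.49, SE 0.16, adjusted p = 4.02e-08, edgeR). Trp53inp1 went from 758, 601 and 548 CPM to 117, 131 and 111 CPM (log2 fold change -2.18, SE 0.15, adjusted p = 7.71e-08). Ccng1 went from 1250, 1030 and 862 CPM to 286, 298 and 246 CPM (log2 fold change -1.70, SE 0.14, adjusted p = 5.67e-07), so that for both genes each line fell between the Dox times.

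Sesn2 was at 158, 139 and 151 CPM at 24 h and at 57.9, 45.8 and 50.5 CPM at 72 h (log2 fold change -1.33, SE 0.13, adjusted p = 2.31e-06, edgeR). Phlda3 rose, from 116, 142 and 121 CPM to 310, 221 and 205 CPM (log2 fold change 1.15, SE 0.16, adjusted p = 4.87e-05), with all 72 h libraries above those of 24 h. How many of all genes do so was not counted. Bbc3, which encodes Puma, rose by less than 2-fold, from 54.8, 61.9 and 50.5 CPM to 90.4, 97.8 and 77.1 CPM (log2 fold change 0.88, SE 0.13, adjusted p = 8.12e-05).

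Cdkn1a (log2 fold change -0.50, SE 0.13, adjusted p = 0.00496), Bax (-0.51, SE 0.14, adjusted p = 0.00669) and Zmat3 (-0.68, SE 0.13, adjusted p = 0.00048) fell by less than 2-fold. Mdm2 was the exception, at 365, 364 and 357 CPM at 24 h and 377, 299 and 322 CPM at 72 h, which overlapped (log2 fold change 0.08, SE 0.13, adjusted p = 0.596).

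The change between these Dox times was related to gene length over all genes. The Spearman coefficient of the log2 fold change with exon length was -0.333 across 11650 genes, which are not independent replicates, and the median log2 fold change was 1.18 in the shortest and -0.65 in the longest of 10 length classes. After the median of the genes in the same length class was taken off, the log2 difference was -2.28 for Trp53, -1.68 for Trp53inp1, -1.61 for Ccng1, -1.24 for Sesn2 and 0.65 for Phlda3, while Bax went to -1.69 from -0.51 and Zmat3 to -0.18 from -0.68. Levels of other pathway genes also parted by Dox time. Kat5, an acetyltransferase that acts on p53, was at 30.4 to 48 CPM at 24 h and at 0.891 to 1.29 CPM at 72 h, and Ddb2, a sensor of UV damage, was at 5.5 to 9.62 CPM at 24 h and at 0 in each library of 72 h. The methods name a 3′ kit and an mRNA kit without saying which library had which. For 72 h of Dox the paper adds Dox 24 h after RA began. It does not say whether the cells with 24 h of Dox had the same time in RA. Dox time, time in RA and the kit therefore cannot be told apart here. Fibroblast markers summed to 252 to 411 CPM at 24 h and 49.2 to 148 CPM at 72 h (Lum was at 0 at 72 h), and their part was not tested.

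**Figure D3:**
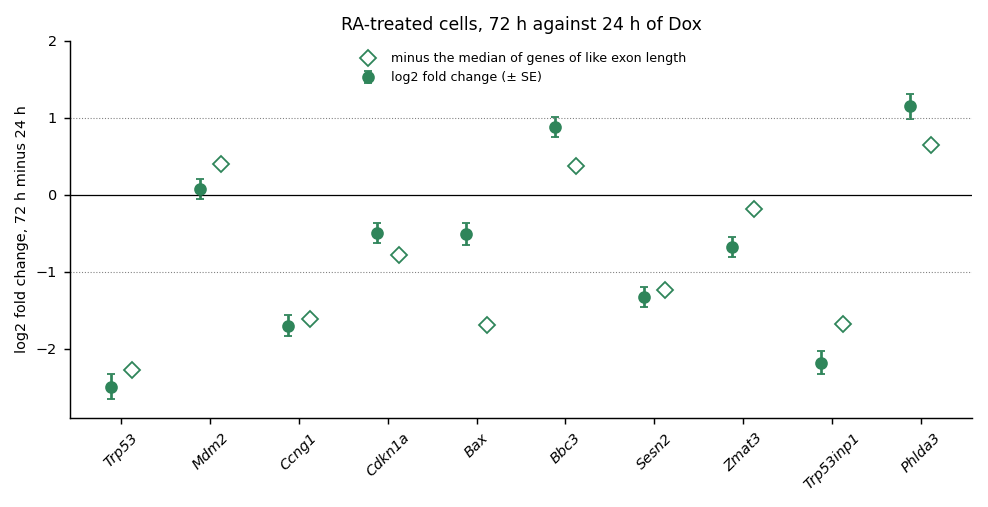
For each gene the log2 fold change between 72 and 24 h of Dox in RA-treated cells (with its SE) is shown beside the value after the median of genes of like exon length was taken off, and dotted lines mark a 2-fold change. Trp53, Trp53inp1, Ccng1 and Sesn2 lie below -1.2 in both, and Bax is the gene that moves most, from -0.51 to -1.69.

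Of the other pathway genes 48 were tested between the Dox times, with 13 called lower and 5 higher at 72 h, or 37.5%, which is below the 42.9% of all genes. The regulators Trp53bp1 (log2 fold change -3.24, SE 0.17), Kat5 (-5.08, SE 0.29) and Prkdc (-2.07, SE 0.18) were called lower, and Cdkn2a, the Ink4a/Arf gene whose Arf product inhibits Mdm2, was called higher (2.20, SE 0.18, at 75.7 CPM on average at 24 h and 313 CPM at 72 h). In the cell death list Pidd1 (-2.93, SE 0.23), Aen (-1.75, SE 0.15) and Perp (-1.60, SE 0.19) were lower and Siva1 (3.05, SE 0.15) was higher. In the growth arrest list Plk2 (-1.47, SE 0.17) and Plk3 (-2.09, SE 0.27), both polo-like kinases, were lower and Sfn (1.33, SE 0.23) was higher. In the metabolism and repair list Ercc5 (-1.07, SE 0.16), Rrm2b (-1.77, SE 0.34) and Ddb2 were lower, and Rps27l (1.31, SE 0.15) and Ddit4 (1.06, SE 0.14) were higher.

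Between the lines, 0 of the 10 genes passed the test in RA-treated cells when the 2 Dox times were pooled (n = 2 each, adjusted p = 1 for each gene, edgeR), and 0% of all genes were called. This model had little power, since 0% of the 4-fold changes put into simulated counts were recovered with H3.3K27M against WT-H3.3. With Dox time as a block 100% of 4-fold and 78% of 2-fold changes were recovered, and again none of the 10 genes passed. The lowest adjusted p was that of Zmat3 in H3.3K27L against WT-H3.3 (log2 fold change -0.48, SE 0.16, adjusted p = 0.0973), and for Cdkn1a and Mdm2 in H3.3K27M against WT-H3.3 the log2 fold changes were 0.08 (SE 0.16) and -0.21 (SE 0.17). With the block the share of all genes called against WT-H3.3 was 0.0163% in the H3.3K27M line and 3.64% in the H3.3K27L line, and between both mutants it was 6.72%. The comparisons with WT-H3.3 share its 2 libraries.

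The stages were compared in a model of 22 libraries, with the ESC libraries of 24 and 72 h without GSK343. Against ESCs, 6 of the 10 genes were called in OPCs, where 65.8% of 15828 genes were called, and 5 in RA-treated cells, where it was 45.7%. The share of the 10 genes called was near that of all genes, so it does not set them apart. Both comparisons share the ESC libraries.

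Mdm2 was called higher in both. It had 86.1 to 183 CPM in the ESC libraries of this model, 299 to 377 CPM in RA-treated cells and 337 to 1070 CPM in OPCs, without overlap with the ESCs (log2 fold change 1.45, SE 0.14, in RA-treated cells and 2.25, SE 0.17, in OPCs, adjusted p = 5.14e-08 and 1.22e-09, edgeR). Phlda3 was at 14.6 to 50.7 CPM in ESCs, 116 to 310 CPM in RA-treated cells and 204 to 586 CPM in OPCs (log2 fold change 2.13, SE 0.20, and 3.01, SE 0.24). Bbc3 was at 0 to 34 CPM in ESCs, 50.5 to 97.8 CPM in RA-treated cells and 60.1 to 88 CPM in OPCs (log2 fold change 2.03, SE 0.21, and 1.98, SE 0.25). The 0 belongs to the ESC library of 68378 counts. Each differentiated library was above every ESC library in these 3 genes, an antagonist of p53 and an inhibitor each of Akt and of Bcl-2 proteins. The share of all genes for which this holds was not counted. Markers of other cell types differed in the same comparisons. All 6 extraembryonic endoderm markers were called higher in RA-treated cells (summed 340 to 1560 CPM, against 0 to 16.7 CPM in ESCs), and 3 were called higher and 1 lower in OPCs. Of the 7 fibroblast markers 5 were called higher in RA-treated cells and 7 in OPCs, with sums of at most 14.6 CPM in ESCs, and 4 of 5 astrocyte and 5 of 6 neuron markers were called higher in OPCs. The part of these cells in the stage differences was not tested.

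Trp53 was called lower in both. Its range was 102 to 438 CPM in ESCs, 20.9 to 204 CPM in RA-treated cells and 13.8 to 24.5 CPM in OPCs, and its log2 fold change was -1.72 in RA-treated cells (SE 0.44, adjusted p = 0.0022) and -4.29 in OPCs (SE 0.63, adjusted p = 5.94e-06, 19.6-fold lower, edgeR). The RA value joined -1.06 (SE 0.16) within 24 h of Dox and -3.46 (SE 0.26) within 72 h. At 72 h the difference of Trp53 between OPCs and RA-treated cells was -0.39 (SE 0.34, adjusted p = 0.422), against -3.54 (SE 0.24) at 24 h. Kat5 and Ddb2 were low in the same libraries, at 0.564 to 1.43 CPM and at 0 in the 4 OPC libraries, against 32.6 to 37 CPM and 6.78 to 10.6 CPM in ESCs of the same lines. Kat5 and Ddb2 were named in OPCs after their values were seen, so they do not show that OPC and RA libraries of 72 h resemble each other. The part of the library kit was not tested.

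Cdkn1a was called higher in OPCs. It was at 87.5 to 382 CPM in ESCs and 109 to 228 CPM in RA-treated cells, which overlapped (log2 fold change 0.03, SE 0.22, adjusted p = 0.932), and at 312 to 762 CPM in OPCs (log2 fold change 1.51, SE 0.26, adjusted p = 3.48e-05, edgeR). Between OPCs and RA-treated cells the log2 fold change was 1.52 (SE 0.32, adjusted p = 0.000649). By line, the log2 fold change of OPCs over ESCs was 2.42 (SE 0.37, adjusted p = 1.54e-05) in WT-H3.3 and 0.60 (SE 0.37, adjusted p = 0.165) in H3.3K27M. For Mdm2 these values were 3.11 (SE 0.25) and 1.39 (SE 0.24), and for Phlda3 they were 3.53 (SE 0.34) and 2.48 (SE 0.34). The difference between the lines passed its own test for Mdm2 only, as given above.

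Zmat3 was called higher in OPCs than in ESCs (log2 fold change 1.09, SE 0.32, adjusted p = 0.00404), while Bax (-0.76, SE 0.32, adjusted p = 0.0373) and Sesn2 (-0.85, SE 0.32, adjusted p = 0.0195) were lower by less than 2-fold. Ccng1 was called higher in RA-treated cells (log2 fold change 1.17, SE 0.28, adjusted p = 0.00129), but this rested on the libraries of 24 h, since within 72 h the difference was -0.10 (SE 0.19) and within 24 h it was 1.91 (SE 0.15). Between OPCs and RA-treated cells 4 of the 10 genes were called, against 45% of all genes. They were Cdkn1a, higher in OPCs, and Trp53, Ccng1 and Trp53inp1, lower in OPCs. Within 72 h only Cdkn1a was called (log2 fold change 1.82, SE 0.28, adjusted p = 3.17e-05), and Ccng1 (0.11, SE 0.26) and Trp53inp1 (0.32, SE 0.25) turned in direction.

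Of the 50 other pathway genes tested between OPCs and ESCs 23 were called lower and 12 higher, or 70% against the 65.8% of all genes, and their median log2 fold change was -0.23 beside -0.20 over all genes. Of 15 regulators 10 were called lower and 3 higher (median -1.41). Chek2 (log2 fold change -2.17, SE 0.16), Chek1 (-2.15, SE 0.17) and Trp73, the p53 relative p73 (0 CPM in OPCs and 5.87 CPM on average in ESCs), were lower, and Cdkn2a (4.15, SE 0.38), Rchy1, a ubiquitin ligase for p53 (1.31, SE 0.15), and the kinase Hipk2 (1.14, SE 0.40) were higher. Among the target lists, Fas (0.0493 CPM on average in ESCs and 19 CPM in OPCs) and Rprm (0.657 and 95.4 CPM), an inducer of G2 arrest, were higher, and Gls2 (43.8 and 1.14 CPM), Epha2 (122 and 13.9 CPM) and Sfn (59.6 and 6.36 CPM) were lower. In RA-treated cells 15 of 50 were called higher and 13 lower than in ESCs (56%, beside the 45.7% of all genes), among them Fas, Perp and Tnfrsf10b higher in the cell death list, where 7 of 12 were called higher and 1 lower.

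In undifferentiated ESCs, none of the 10 genes was called between any of the lines or with GSK343. With H3.3K27M against WT-H3.3 over all Dox times (n = 8 each) 0 of the 10 genes passed the test, and 0.0143% of 14012 genes passed and were called. With GSK343 0 of the 10 genes passed (lowest adjusted p = 0.973, 0% of all genes called, edgeR). An unadjusted p under 0.05 was found for 678 of all genes (4.84%), near the share that chance alone gives. Simulated 2-fold changes between H3.3K27M and WT-H3.3 passed an adjusted p of 0.05 in 97% of cases, whatever the fold. This is therefore not the power to call a gene. The simulation changed 100 genes 2-fold and 100 genes 4-fold, where 2 genes passed in the data, and more changed genes ease the adjustment. The 3 comparisons with WT-H3.3 share its 8 libraries. The ESC markers summed to 3440 to 7310 CPM.

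Cdkn1a had the largest difference. Its level was 112 to 143 CPM (median 123) in WT-H3.3, 126 to 382 CPM (median 168) in H3.3K27M, 84.3 to 193 CPM (median 127) in H3.3K27L and 112 to 173 CPM (median 130) with GSK343. In H3.3K27M replicate 2 of 8 h (328 CPM) and of 24 h (382 CPM) stood above every other ESC library, and the other 6 libraries were at 126 to 190 CPM and overlapped WT-H3.3. The log2 fold change over WT-H3.3 was 0.67 (SE 0.19, adjusted p = 0.166, edgeR), and without these libraries it was 0.29 (SE 0.16, adjusted p = 1).

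Other targets were also high in these H3.3K27M libraries. Mdm2 was at 187 and 183 CPM there, at 8 and 24 h, and at 86.1 to 133 CPM in the other 6 H3.3K27M libraries. Bbc3 was at 28.6 and 34 CPM against 10.7 to 16.9 CPM, Zmat3 at 204 and 222 CPM against 89.2 to 153 CPM and Trp53inp1 at 332 and 338 CPM against 152 to 242 CPM. Sesn2 was at 130 and 148 CPM against 75.5 to 110 CPM. The remaining targets did not lie above the other 6 libraries in both. Ccng1 was at 265 and 305 CPM (205 to 293 CPM in the others) and Phlda3 at 45.8 and 47.3 CPM (24 to 51.7 CPM). Bax was at 107 and 102 CPM, near the lower end of the others (107 to 161 CPM). The share of all genes that were high in these libraries was not counted, so the values do not set the targets apart. These libraries were chosen after their values were seen, so no test is given. Their ESC markers summed to 5920 to 6170 CPM, inside the range of the other deeper ESC libraries (5120 to 7310 CPM). Their RA-treated neural markers summed to 47 to 77.7 CPM, against 59 to 223 CPM in those libraries. Their OPC markers summed to 23.3 to 27.1 CPM, below the 28.3 to 60.1 CPM of those libraries. The sums of fibroblast, astrocyte, neuron and extraembryonic endoderm markers lay inside the ranges of those libraries.

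The replicate numbers paired H3.3K27M with WT-H3.3, so the difference of Cdkn1a was also taken within each. Within replicate 1 it was 0.25 (SE 0.09, adjusted p = 0.413, edgeR), and within replicate 2 it was 0.97 (SE 0.19). The value for Bbc3 was -0.09 (SE 0.15) within replicate 1 and 0.79 (SE 0.25) within replicate 2. Replicate 2 holds both H3.3K27M libraries that were chosen for their high values, so no p-value is given for it. The adjusted p of Cdkn1a over all libraries lay between 0.0208, without replicate 1 of H3.3K27M at 8 h, and 0.713, when each library was left out in turn. Between H3.3K27M and H3.3K27L Cdkn1a passed the test (log2 fold change 0.63, SE 0.19, adjusted p = 0.0396, where 11% of all genes passed and 3.78% were called), and it fell to 0.25 (adjusted p = 0.374) without the same H3.3K27M libraries.

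Sesn2 was the 1 gene of the 10 that passed between H3.3K27L and WT-H3.3, where 8.14% of all genes passed and 3.43% were called. It was at 71.8 to 123 CPM (median 104) in WT-H3.3 and at 122 to 150 CPM in the 7 deeper H3.3K27L libraries, with 87.5 CPM in the library of 68378 counts. The deeper H3.3K27L libraries met WT-H3.3 only at its highest library (log2 fold change 0.44, SE 0.13, adjusted p = 0.0374, edgeR). Within replicate 1 the value was 0.52 (SE 0.09) and within replicate 2 it was 0.42 (SE 0.15). The replicate numbers do not pair H3.3K27L with WT-H3.3 at 4, 8 and 24 h. Line and replicate thus cannot be told apart within a number, and no p-value is given. Sesn2 no longer passed without replicate 1 of H3.3K27L at 72 h (adjusted p = 0.58), when the library of low depth alone stands for that time point, and Bax, which has 0 counts there, was then called lower.

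Some targets of H3.3K27L took different values in the replicates. Within replicate 1 the log2 fold change over WT-H3.3 was 0.79 (SE 0.11) for Zmat3, 0.58 (SE 0.15) for Trp53inp1, 0.41 (SE 0.08) for Mdm2 and -0.31 (SE 0.09) for Cdkn1a. Within replicate 2 they were -0.13 (SE 0.29), -0.14 (SE 0.26), -0.05 (SE 0.17) and 0.29 (SE 0.21). Replicate differences of WT-H3.3 and H3.3K27L were negatively correlated over 8497 genes at 4, 8 and 24 h (-0.604, -0.711 and -0.681). The numbers therefore do not pair these lines, and no p-value is given. The part of this in the values was not tested.

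**Figure D4:**
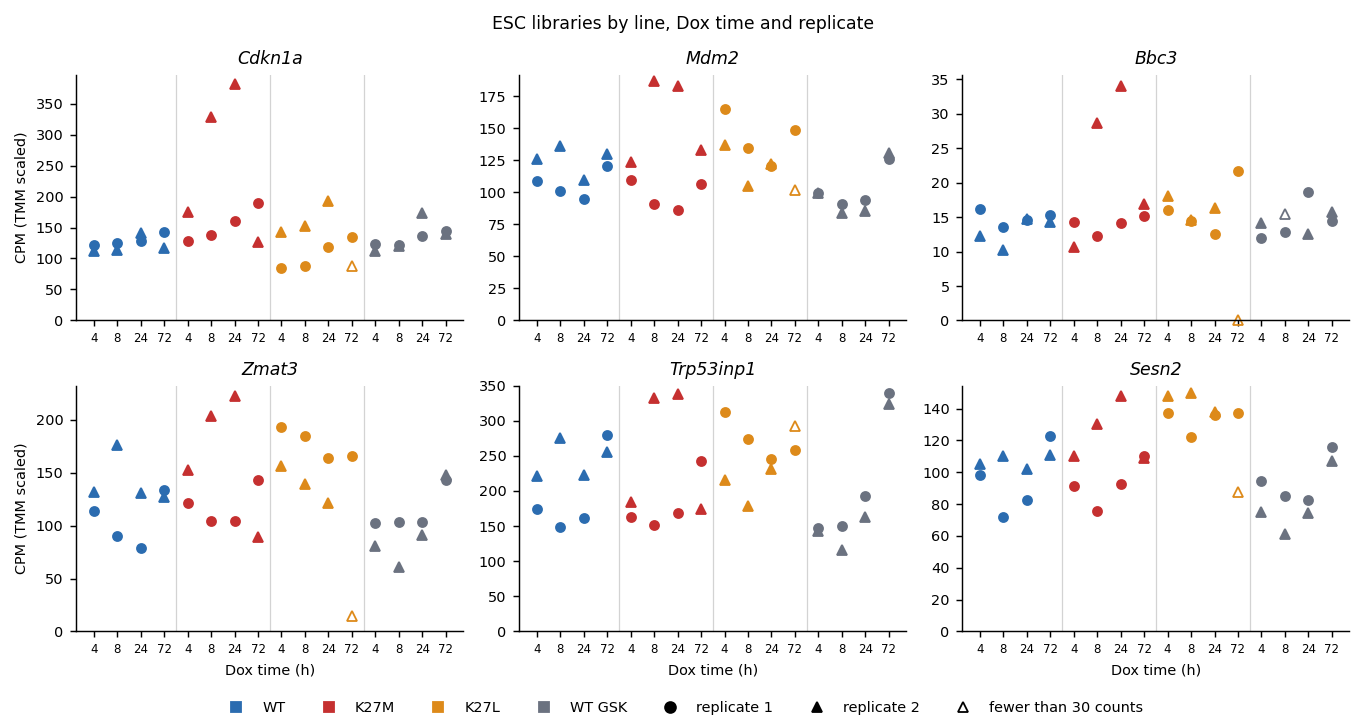
CPM (y axis, TMM-scaled) of p53 targets in each ESC library, by line and Dox time (x axis, hours), with circles for replicate 1 and triangles for replicate 2 and open symbols for few counts. Replicate 2 of H3.3K27M at 8 and 24 h holds the highest Cdkn1a (328 and 382 CPM), Mdm2 (187 and 183 CPM) and Bbc3 (28.6 and 34 CPM) of all ESC libraries.

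Dox time had no called effect on the 10 genes in ESCs. Between the late (24 and 72 h) and the early (4 and 8 h) libraries of all lines 0 of the 10 genes passed the test, where 17% of all genes passed and 1.29% were called. Bax had the lowest adjusted p (log2 fold change -0.28, SE 0.11, adjusted p = 0.0917, edgeR), and no interaction of Dox time with a line passed in the 10 genes, with 0% of all genes called.

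Other pathway genes were also rarely called in ESCs. Of the 49 tested, 0 were called for either mutant against WT-H3.3, with GSK343 or between Dox times. Between both mutants Ddit4, an inhibitor of mTORC1 (log2 fold change 1.42, SE 0.25, adjusted p = 0.000661), was called higher in H3.3K27M, and Perp (-1.05, SE 0.18, adjusted p = 0.000457) was called lower.

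The ESC libraries also show which genes varied with Cdkn1a and Mdm2 from library to library. After the mean of each replicate number was taken off, Spearman coefficients were computed over the 31 deeper ESC libraries against 12704 genes. Cdkn1a was most like Kctd13 (0.861), Cldn6 (0.85), Agpat1 (0.831), Tcp11 (0.827) and Dym (0.821), and among the genes most like Mdm2 were Polk (0.944), 4632434I11Rik (0.941), Rev1 (0.917) and Rbbp5 (0.912). Mdm2 and Cdkn1a had a coefficient of -0.045 with each other. Mdm2 had 0.838 with Zmat3 (rank 167.5 among the 12704 genes) and 0.837 with Trp53inp1 (rank 172.5), so many other genes were more like it. With the remaining members it had 0.779 (Sesn2), 0.729 (Ccng1), 0.445 (Bbc3), 0.373 (Phlda3), -0.176 (Trp53) and -0.484 (Bax). Libraries share replicate numbers, depth and length composition, so these coefficients describe the libraries.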

How the data were processed

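Gene counts of 42 RNA-seq libraries were used. The authors aligned the reads with STAR 2.7.1 to mm9, allowing up to 10 mismatches, and deposited raw counts per gene without normalization (per the methods, with QuantSeq 3′ or KAPA mRNA kits, not stated per library). Replicate pooling did not apply. Each count file held 55471 genes, and 32589 of these were matched to the NCBIM37 annotation (98.2% of counts), and the 2532 genes of chromosome 8 (5.85% of counts) were left out of tests as in the methods, 1435 of them placed by the annotation and the others by their order in the tables. The ChIP-seq and human data were not analysed here. In OPCs the columns of 72 h carry replicate number 2 and the labels number 1, and the labels were followed. Depth was 68378 to 22269533 counts per library, and precision follows it.

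Each comparison was tested with edgeR 4.0.16 (quasi-likelihood F test, TMM, filterByExpr, Benjamini-Hochberg adjustment over all genes tested). The ESC fit held 32 libraries with a mean per line and Dox time (16 means), the stage fit 22 libraries with a mean per stage and line (8 means), the RA fits 6 and the OPC fit 4. The SE is the absolute log2 fold change divided by the square root of F. The alternatives used DESeq2 1.42.0, DESeq2 size factors, no filter, chromosome 8 kept, only the lines compared, a replicate block, Dox time as a term, no fold threshold, and each library left out. Those added after seeing the data were the removal of the H3.3K27M libraries highest for Cdkn1a, fits within a replicate number, Dox time or line, crossed replicate numbers and the correction for exon length. On simulated counts, 86% of 2-fold and 100% of 4-fold changes were recovered between OPC lines, and 34% and 87% between OPCs and ESCs. The shares were 58% and 94% between RA-treated cells and ESCs, and 86% and 99% between Dox times in RA-treated cells. Recovered means an adjusted p under 0.05 in the right direction, whatever the fold.

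Pairing was checked by the correlation of replicate differences across 8497 genes. In ESCs the coefficient of H3.3K27M with WT-H3.3 was 0.618, 0.718, 0.613 and 0.714 at 4, 8, 24 and 72 h, so the numbers pair these lines. No 2 libraries were copies (chi-square of at least 1.85 per gene). The 10 genes, the 4 lists and the marker lists were chosen with earlier results of these data known. Named beside the 10 genes were, from each list and comparison, at most 3 called genes in each direction by adjusted p, and the 5 genes most like Cdkn1a and Mdm2, of which 1 is not reported here. Kat5 and Ddb2 in OPCs were named after their values were seen. Python 3.11.15 with Matplotlib 3.10.9, pandas 2.3.3 and NumPy 2.4.6 was used beside R 4.3.3.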

Additional observations from a re-analysis of the deposited data

Results flagged for a closer look

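In ESCs with H3.3K27L, replicate 2 of 72 h stood apart from the other 7 H3.3K27L libraries in 6 of the 10 genes, at 102 CPM for Trp53, 0 CPM for Bax, 0 CPM for Bbc3, 87.5 CPM for Sesn2, 14.6 CPM for Zmat3 and 14.6 CPM for Phlda3. Its gap to the nearest library, divided by the range of the group, was above the 95% critical value of Dixon's test. This library held 68378 counts, so 14.6 CPM is 1 read and 0 CPM allows up to 43.8 CPM (3 counts). Chance gives such a gap in about 1 in 20 groups, and 40 groups of 8 libraries were examined.

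The H3.3K27M difference of Mdm2 was lower in OPCs than in ESCs in an interaction test of edgeR (log2 value -1.71, SE 0.36, adjusted p = 0.006), with Mdm2 at 337 and 381 CPM in H3.3K27M OPCs against 1020 and 1070 CPM in WT-H3.3 OPCs. Without the H3.3K27M OPCs of 72 h the adjusted p was 0.0689. Fibroblast, OPC, neuron, astrocyte and extraembryonic endoderm markers differed between the same OPC libraries, and their part in the difference was not tested.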

How the results depend on the processing

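The number of the 10 genes called kept within 1.5 times its value in 131 settings other than single libraries left out and moved further in 11. Counting every gene with an adjusted p under 0.05, whatever the fold, gave 1 gene in H3.3K27L ESCs against the WT-H3.3 control, 1 between both mutants in ESCs, 9 between Dox times in RA-treated cells and 8 between OPC lines. The number of stage by line tests passed was 1 in the reported model, 2 with DESeq2, with DESeq2 size factors, without the filter or with Dox time as a covariate, and 3 with all 42 libraries. Within 72 h 1 gene was called between OPCs and RA-treated cells, and with the H3.3K27L line alone 3 were called between RA-treated cells and ESCs. Within 72 h Ccng1 between RA-treated cells and ESCs turned to -0.10, and between OPCs and RA-treated cells Ccng1 turned to 0.11 and Trp53inp1 to 0.32. The cause was not tested.

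When each library was left out in turn, the count was 0 to 1 for late against early Dox in ESCs and also 0 to 1 for H3.3K27L against its control (1 without replicate 1 of H3.3K27L at 72 h, which left the library of 68378 counts alone at that time), 2 to 5 for OPCs against RA-treated cells (5 without WT-H3.3 of 72 h in RA-treated cells, 2 without WT-H3.3 or H3.3K27M of 24 h in RA-treated cells, or without WT-H3.3 of 24 h in OPCs) and 0 to 2 for stage by line (0 without H3.3K27M OPCs of 72 h). With the replicate block the count of the 10 genes called in ESCs stayed at 0 for each line, with Cdkn1a at 0.64 (adjusted p = 0.105) for H3.3K27M and Sesn2 at 0.46 (adjusted p = 0.0261) for H3.3K27L, and H3.3K27M against WT-H3.3 gave 23 calls over all genes in place of 2. With crossed numbers for H3.3K27L 615 of all genes were called in place of 481. RA-treated cells have 1 library per line and time. Depth limits mainly the library of 68378 counts.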
